A study of Mus musculus with 2 samples.

Results

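The genes described here are the 10 mouse genes that write, keep or remove methyl groups on the cytosines of DNA, and the question was which of them lay in accessible chromatin in maturing erythroid cells. They were taken with every accessible region within 50 kb of each gene body. In the main peak list 56 of 20080 regions met this rule, and 6 of the 10 genes had a region at a start site of their own: Dnmt1, Uhrf1, Tet2, Tet3, Tdg and Mbd4. Dnmt3a, Dnmt3b, Dnmt3l and Tet1 had none. Of all 21853 protein-coding genes, 41.9% had such a region, so 6 of 10 is a count of these genes and no test of the group.

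Cytosine methylation in mammals is set by DNA methyltransferases. Dnmt3a and Dnmt3b methylate new sites, Dnmt3l is their catalytically inactive partner, and Dnmt1 copies methylation to the daughter strand after replication, where Uhrf1 guides it to hemimethylated DNA. The TET enzymes Tet1, Tet2 and Tet3 oxidise methylcytosine, and the glycosylases Tdg and Mbd4 cut out the oxidised or deaminated bases so that base excision repair can restore cytosine. Erythroid maturation in the mouse is known for a broad loss of DNA methylation, and TET2 is often mutated in human myeloid disease.

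Accessible chromatin was mapped by ATAC-seq, in which a transposase cuts open DNA and tags it for sequencing, in G1E-ER4 cells. These cells are a male mouse erythroid line, assigned to strain C57BL/6J by the labels, that lacks its own Gata1 and carries a GATA1 protein fused to the hormone-binding domain of the estrogen receptor. Both libraries, biological replicates 1 and 2 of 50000 cells each, came from cells kept in 10 nM 17beta-estradiol for 24 hours, which switches the fusion protein on. All the data are thus from a single cell line and a single condition with n = 2, no untreated cells were analysed here, and no value below is a change caused by estradiol. A region is a stretch where the authors' peaks overlap, and it reports accessibility, neither transcription nor the methylation of the DNA itself.

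The labelled cell type was checked against marker genes. A region at a start site was present for 9 of 10 erythroid genes, among them Hba-a1 and Hbb-bs, which encode globins, while Alas2, the first enzyme of erythroid heme synthesis, had 3 distal regions and none at its start in the main list. None of 23 lymphoid, myeloid, liver and neuron markers (Cd3e, Cd79a, Csf1r, Itgam, Cebpe, Alb, Afp and Apoa1 among them) had a region at a start site. At least 1 distal region within 50 kb was found near 10 of 10 erythroid and 4 of 7 lymphoid markers. The same held for 6 of 8 myeloid and 3 of 8 liver and neuron markers. Of all protein-coding genes 50.6% had one, so distal counts did not set lymphoid or myeloid markers below genes at large. The main list holds the peaks that the authors found reproducible between the true replicates at an irreproducible discovery rate (IDR) under 0.05. The IDR lists of single libraries, meant wherever a region is said to be called in a library, held 14012 regions for replicate 1 and 15564 for replicate 2, and the replicated list, which is less strict, held 46345. The number of reads per library is unknown, so a gene without a region is one whose accessibility was not called at this depth.

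A promoter region has its summit within 1 kb of an annotated transcription start, and every other region is distal. The strongest promoter region of a methylation gene was that of Mbd4, which removes thymine left by deamination of methylcytosine. The region lay at chr6:115852902-115853787 on mm10, with its summit 44 bp before the start, and also within 1 kb of the start of the divergent neighbour Ift122, so the signal cannot be assigned to either gene alone. The 98 bases of the region directly before the Mbd4 start are printed here from the minus strand (chr6:115853372-115853469). The letters CCAAT or their complement ATTGG, bound by NF-Y, are in capitals. The promoter of Tdg, the glycosylase that removes TET-oxidised cytosine, is printed next from the plus strand (chr10:82629671-82629827), with the cAMP response element letters TGACGTCA in capitals. The third sequence, from the plus strand at chr17:56304102-56304302, precedes the second start of Uhrf1, and an E2F pattern of the cell cycle factors is in capitals. These 3 stretches lie at the summits of the promoter regions and leave out annotated untranslated exons.

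Mbd4 promoter: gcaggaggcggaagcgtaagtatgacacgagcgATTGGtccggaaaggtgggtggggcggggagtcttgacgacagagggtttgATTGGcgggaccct

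Tdg promoter: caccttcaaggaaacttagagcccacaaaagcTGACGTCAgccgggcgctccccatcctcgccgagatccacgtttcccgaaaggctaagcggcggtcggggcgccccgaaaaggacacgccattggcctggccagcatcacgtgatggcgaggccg

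Uhrf1 promoter at the second start: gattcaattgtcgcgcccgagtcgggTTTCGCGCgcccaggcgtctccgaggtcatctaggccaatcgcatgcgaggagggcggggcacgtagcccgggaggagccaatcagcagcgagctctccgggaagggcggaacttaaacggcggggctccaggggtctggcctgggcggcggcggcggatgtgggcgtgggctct

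Each of these matches is a description of the letters. Within 100 bp of the summit on either strand, CCAAT was found in 37.1% of all promoter regions, TGACGTCA in 3.74% and any of the 4 E2F patterns searched (TTTCCCGC, TTTGGCGC, TTTCGCGC and TTTGCCGC) in 3.16%. Among the 8 promoter regions of the methylation genes, 5 held CCAAT (Tet3 at its downstream start, both starts of Uhrf1, Tdg and Mbd4), 1 held the cAMP element (Tdg) and 1 an E2F pattern (Uhrf1). The GC box GGGCGG was in 7 of 8 against 61.7% of all promoter regions, CCGGAA of the ETS factors in 1 of 8 (Mbd4) against 28.2%, and GCATGCGC of NRF1 in 1 of 8 (Dnmt1) against 4.67%. No GATA pattern (GATAA with A or T before it, or likewise GATAG) was within 100 bp of these 8 summits, and 13.0% of all promoter regions held one.

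**Figure D1:**
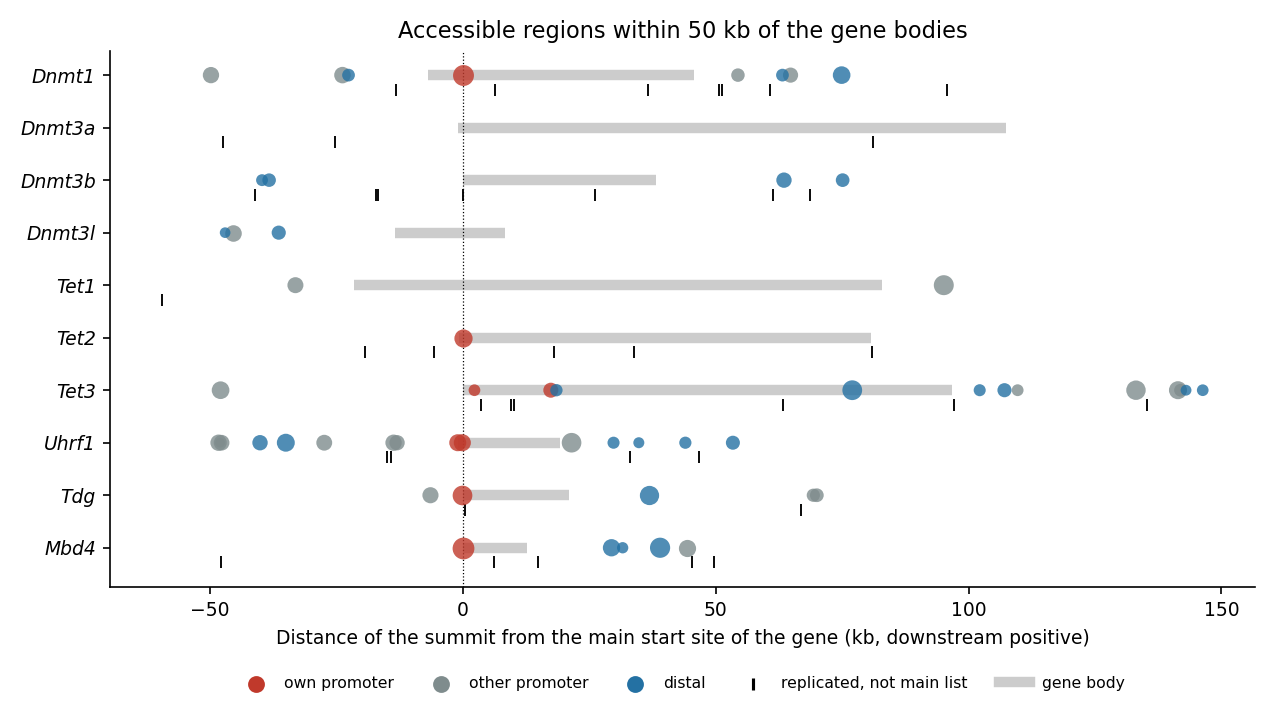
Every region within 50 kb of the 10 gene bodies, by the distance of its summit from the main start site of the gene in kb, downstream positive. Grey bars are gene bodies, circle area is proportional to the authors' signal in the main list, and colours give the class. Black ticks are the 40 regions of the replicated list that the main list lacks, 4 of which overlap a region in the IDR list of a library. The tick at the Tdg start (chr10:82630076-82630278) does so through the replicate 2 region that also matches the Tdg promoter region. Dnmt3a has ticks only, and Tet1 has circles only at promoters of its neighbours.

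The maintenance pair, Dnmt1 and Uhrf1, was open at the starts in both libraries. For Dnmt1 the region lay at chr9:20952503-20953139, over the start shared by 3 transcripts, with a summit 22 bp inside the 5′ untranslated exon. The −log10 p of this region was 64.53 in replicate 1 and 60.66 in replicate 2, and its signal in the main list, the authors' enrichment value per peak, was 20.17. That signal was above 91.98% of all promoter regions in the list, against a median of 12.94 for them. Within each library's own list the signal lay at percentile 93.77 in replicate 1 and 81.81 in replicate 2, so its rank was lower in replicate 2. The other annotated start of Dnmt1, 6.9 kb upstream, had no region. A weak region farther upstream, in an untranslated exon of S1pr2 (chr9:20966074-20966375, signal 10.44, IDR 0.1674), was found in the replicated list and in the list of replicate 1 alone.

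Uhrf1 had both of its start sites open, in regions about 1 kb apart. The upstream region (chr17:56303088-56303606) had a −log10 p of 54.7 in replicate 1 and 47.43 in replicate 2. The region at the second start (chr17:56304016-56304444) had 49.46 in replicate 1 and 58.16 in replicate 2. The order of the 2 starts was thus opposite in the 2 libraries, and their signals in the main list, 13.34 and 13.46, were close to the median of all promoter regions. The E2F letters printed above belong to the second of these regions.

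Of the de novo methyltransferases, none had a region at a start site in the main list or in the list of either library. Dnmt3a had no region at all within 50 kb, and the nearest one lay 167.8 kb from the gene body. All 9 of its start sites were without a region in the main list. In the replicated list 3 weak distal regions appeared near it: 1 in an untranslated exon of the neighbour Dtnb at -25.3 kb from the main start (chr12:3781569-3781857, signal 8.141, IDR 0.115), 1 in a Dtnb intron at -47.4 kb with a signal of 6.695, and 1 in a Dnmt3a intron 81.1 kb downstream of the main start with a signal of 4.463. None of these was in the IDR list of either library.

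The start of Dnmt3b had a single weak region, found in the replicated list with a signal of 3.826 and an IDR of 0.513, and no peak there in the ranked list of either library. Dnmt3l reached a region at a start site only in the archived version of the replicated list, which held 157788 regions, with a signal of 3.658. Dnmt3a and Tet1 had no start-site region in any of the thresholded, replicated or pseudoreplicated lists. The same 6 genes were open in the replicate 1 list and in the replicate 2 list, where 38.5% and 39.6% of all protein-coding genes were. In the replicated list 7 of the 10 genes were open against 46.5% of all genes, and in the archived list 8 of 10 against 54.1%.

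**Figure D2:**
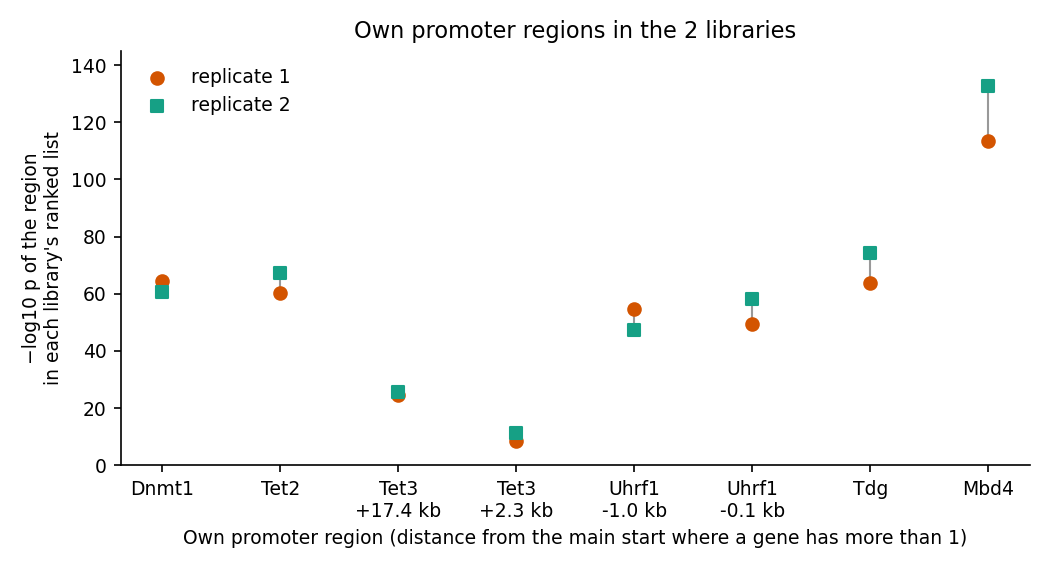
The −log10 p of each of the 8 own promoter regions (y axis) in the ranked list of replicate 1 (circles) and replicate 2 (squares), with the distance from the main start under genes that have 2 regions. Mbd4 is highest in both libraries, at 113.3 and 132.8, and the Tet3 region 2.3 kb downstream is lowest, at 8.557 and 11.27.

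Among the TET genes, which begin demethylation, Tet2 and Tet3 were open and Tet1 was not. The Tet2 region (chr3:133543802-133544648) had its summit within 1 kb of 2 of its 3 start sites, with 1 of them inside the region, and had a −log10 p of 60.4 in replicate 1 and 67.39 in replicate 2. Its signal of 15.31 lay at the percentile 66.54 of promoter regions. The third start of Tet2, inside the gene, was without a region.

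Tet3 was the weakest of the 6 open genes in both libraries. Its stronger region (chr6:83441323-83441872), 17.4 kb downstream of the most upstream start, had a −log10 p of 24.51 in replicate 1 and 25.73 in replicate 2, and a signal of 10.41 at percentile 32.06. The weaker region (chr6:83456499-83456943), 423 bp from the middle start, had 8.557 and 11.27 and was in the thresholded list of neither library. The most upstream Tet3 start had no region. A further Tet3 region with a signal of 7.048 had its summit 1049 bp from the downstream start, just outside the 1 kb limit, and was counted as distal. Where only regions above the median signal of the list were kept, Tet3 was no longer open and the count was 5 of 10. Under the same rule 32.08% of all protein-coding genes were open.

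Tet1 had 6 annotated start sites and a region at none of them. The nearest regions lay 11.3 and 11.9 kb outside the gene body and were the promoters of its neighbours, Slc25a16 with a signal of 11.8 and Ccar1 with 18.37. The gene body between them, 104.4 kb long, held no region in the main list, and the replicated list added only a region at the start of Dna2.

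Both glycosylase genes were open and strong. The Tdg region (chr10:82629287-82630018) had a −log10 p of 63.61 in replicate 1 and 74.43 in replicate 2, with a signal of 17.87 at percentile 82.3, and it stood for 2 of the 4 Tdg start sites. The Mbd4 region had 113.3 and 132.8, with a signal of 21.88 at percentile 96.2. In all, 7 of the 8 own promoter regions were called in both libraries against 80.7% of all promoter regions, and 6 of the 8 had a higher −log10 p in replicate 2, which is also the library with more regions. Counted over start sites, 10 of 35 were open, against 30.0% of the start sites of all protein-coding genes.

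CpG-rich promoters are often open in many cell types, so the CpG content at the starts was compared. The CpG ratio is the observed number of CpG dinucleotides over that expected from the base composition, here within 500 bp on each side of a start. The main start of Dnmt3a had a ratio of 0.9804, higher than that of 97.22% of protein-coding genes, and no region. Tet2, with a ratio of 0.9202 in the same class of 0.9 to 1.0, was open, as were 77.63% of the 1484 genes of that class. GC content was not matched in these classes, and was 80.92% around the main start of Dnmt3a and 67.53% around that of Tet2. The 2 promoters as given by RefSeq on GRCm38.p6 are printed to show that both are rich in CpG, with CG in capitals. The Dnmt3a stretch (chr12:3806730-3807029, plus strand) held 46 CpG dinucleotides in 300 bases, a ratio of 0.9636. The Tet2 stretch (chr3:133544391-133544640, minus strand) held 51 in 250 bases, a higher ratio of 1.187.

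Dnmt3a promoter, not accessible in the main list: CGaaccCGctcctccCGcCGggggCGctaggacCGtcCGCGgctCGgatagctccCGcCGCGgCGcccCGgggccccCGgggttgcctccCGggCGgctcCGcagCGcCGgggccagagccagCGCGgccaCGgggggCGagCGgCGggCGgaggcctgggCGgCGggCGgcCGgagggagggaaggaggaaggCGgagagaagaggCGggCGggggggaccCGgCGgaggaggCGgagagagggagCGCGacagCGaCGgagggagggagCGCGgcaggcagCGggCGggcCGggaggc

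Tet2 promoter, accessible: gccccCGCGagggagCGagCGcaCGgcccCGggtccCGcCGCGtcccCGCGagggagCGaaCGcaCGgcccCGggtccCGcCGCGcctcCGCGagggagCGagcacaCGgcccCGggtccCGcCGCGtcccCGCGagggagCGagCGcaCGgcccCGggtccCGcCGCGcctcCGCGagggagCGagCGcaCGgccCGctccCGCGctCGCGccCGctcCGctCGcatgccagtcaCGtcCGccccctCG

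Dnmt3b, with a ratio of 0.8301, was also without a region, whereas Uhrf1 (0.8394) and Tdg (0.8716) in the same class of 0.8 to 0.9 were open, as were 74.98% of the 2698 genes of that class. GC content around the main start was 70.43% for Dnmt3b, 61.54% for Uhrf1 and 64.34% for Tdg. Mbd4 was open at a CpG ratio of 0.6486. Of the 6 methylation genes with a ratio of at least 0.6 at the main start, 4 were open, against 70.7% of the 10250 protein-coding genes with such a ratio. Of the 4 with a lower ratio, Dnmt1 (0.5928) and Tet3 were open and Tet1 (0.5458) and Dnmt3l (0.175) were not. In the class of 0.5 to 0.6, to which Dnmt1 and Tet1 belong, 49.01% of 1663 genes were open, and in the class of Dnmt3l, 5.479% of 3139. The main start of Tet3, by the rule used, is the most upstream one with a ratio of 0.1348, and its open starts had ratios of 0.8202 and 0.5367.

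**Figure D3:**
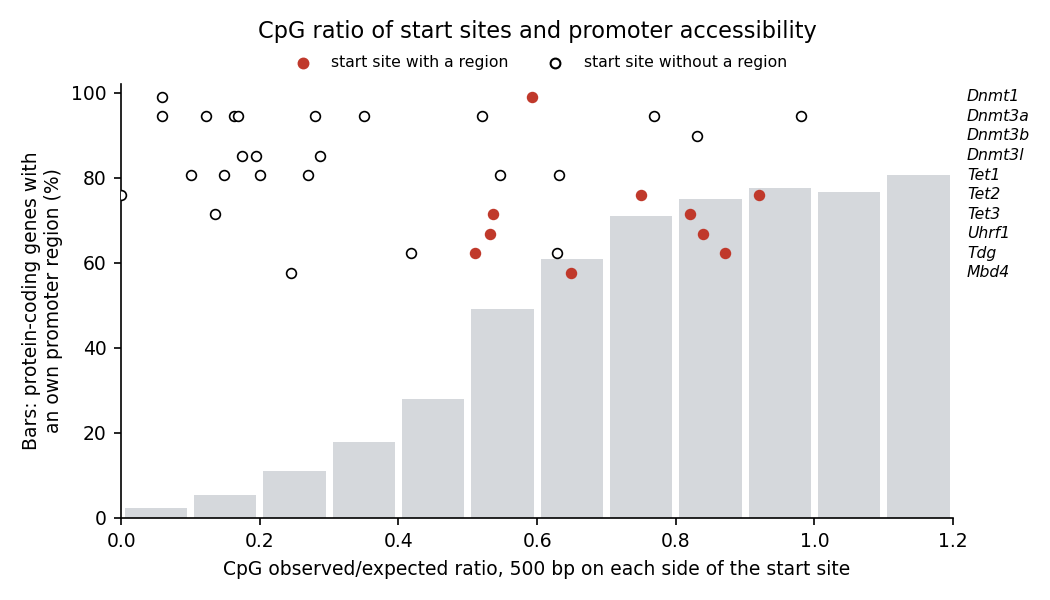
CpG ratio (x axis) of each start site of the 10 genes, a row of circles per gene with the gene's name at the right, filled where the start had a region in the main list; the height of a circle has no meaning beyond its row. Grey bars show, on the y axis, the percentage of protein-coding genes with an own promoter region, from 2.277% to 80.56%. They are drawn for each class of CpG ratio at the main start that holds at least 20 genes. Dnmt3a and Dnmt3b have unfilled circles, for starts without a region, above tall bars.

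Distal regions numbered 25, and 7 of the 10 genes had at least 1 within 50 kb, against 50.6% of protein-coding genes. The mean per gene was 2.5 over all 10 genes, 4 of them without an own promoter region. Over all protein-coding genes it was 1.187, and over those with an own promoter region, a set unlike the 10, it was 1.771. The window includes the gene body, 12.7 kb long for Mbd4 and 108.4 kb for Dnmt3a, and gene length was not matched. By role, the maintenance genes had 3 (Dnmt1) and 6 (Uhrf1), the de novo group had 0 (Dnmt3a), 4 (Dnmt3b) and 2 (Dnmt3l), the TET genes had 0 (Tet1), 0 (Tet2) and 6 (Tet3), and the glycosylases had 1 (Tdg) and 3 (Mbd4). Accessibility at the start and around the gene did not go together in each case, since Tet2 was open at its start with no distal region and Dnmt3b had 4 distal regions with a start that was not open. Each library alone gave 15 (replicate 1) and 13 (replicate 2), or 14.0 ± 1.414 (SD, n = 2), with means per gene of 1.5 and 1.3 against 0.643 and 0.7749 over all genes.

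**Figure D4:**
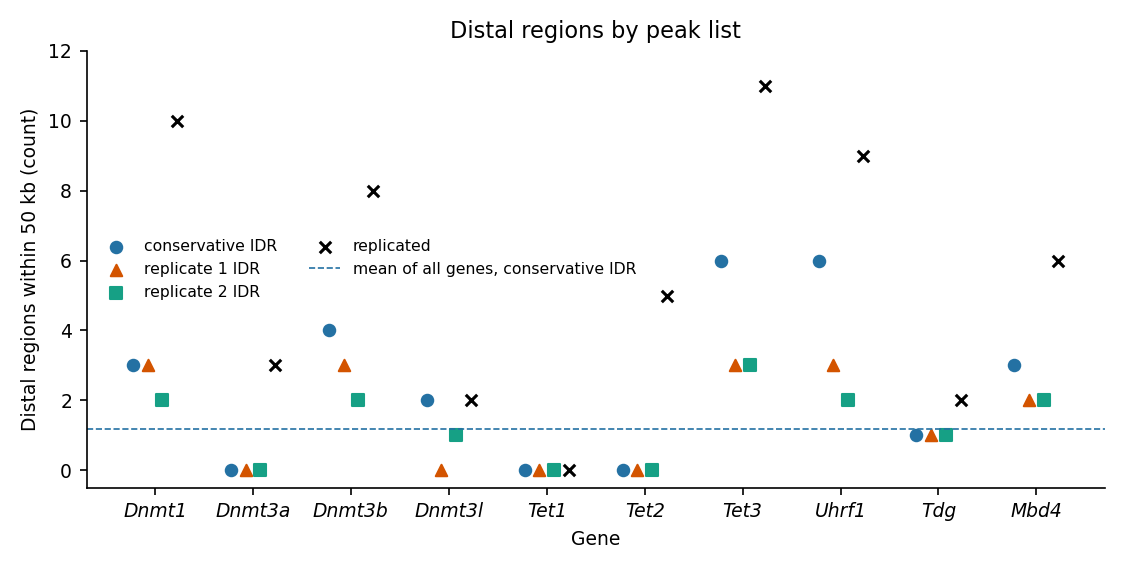
Number of distal regions within 50 kb of each gene body (y axis) in the main list (conservative IDR, circles), in the list of each library (triangles and squares) and in the replicated list (crosses), with a dashed line at the mean of all protein-coding genes in the main list, 1.187. Tet3 and Uhrf1 have 6 each in the main list and 3 or fewer in each library, and Tet1 is at 0 in all 4 lists.

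The strongest distal regions stood near the glycosylase genes and inside Tet3, and each was called in both libraries. The Mbd4 one (chr6:115814062-115814729), in an intron of the neighbour Efcab12 and 39.0 kb downstream of the Mbd4 start, had a signal of 18.77 at percentile 97.38 of distal regions, and a −log10 p of 56.65 in replicate 1 and 73.79 in replicate 2. A region at chr6:115823840-115824358 in the same gene had a signal of 13.81 and was called in both libraries. A weak region at chr6:115821679-115822053 had a signal of 5.918 and was called in neither. The Tet3 region lay in a Tet3 intron 77.0 kb from the most upstream start (chr6:83381650-83382416), had a signal of 18.0 at percentile 96.69 and a −log10 p of 40.73 and 45.02. The single distal region of Tdg (chr10:82666429-82666887), 36.8 kb downstream in an intron of Glt8d2, had a signal of 17.11 at percentile 95.51 and a −log10 p of 43.71 and 37.39. Nearness is all that links these regions to the genes, as no contact between a region and a promoter was measured.

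The GATA pattern is bound by GATA1, and the fusion protein is the form of GATA1 in these cells. Of the 25 distal regions, 14 held such a pattern within 100 bp of the summit, against 50.9% of all distal regions, so the share was near that of distal regions at large. Of the 14, 3 were called in both libraries: the strong Tet3 and Tdg regions and a weaker one near Tet3. The share called in both among all distal regions with the pattern was not counted, so the 3 are no result about GATA regions. The strong pair and the Dnmt3b region with the highest signal are printed around their summits, with GATA letters or their complement in capitals. The Tet3 sequence is from the minus strand at chr6:83381974-83382174, the Tdg sequence from the plus strand at chr10:82666500-82666700 and the Dnmt3b sequence from the plus strand at chr2:153712824-153713024.

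Tet3 intron region: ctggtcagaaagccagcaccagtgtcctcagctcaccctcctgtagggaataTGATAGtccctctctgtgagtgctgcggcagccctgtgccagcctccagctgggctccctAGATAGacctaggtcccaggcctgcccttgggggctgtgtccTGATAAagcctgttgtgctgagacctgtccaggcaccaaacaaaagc

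Tdg downstream region: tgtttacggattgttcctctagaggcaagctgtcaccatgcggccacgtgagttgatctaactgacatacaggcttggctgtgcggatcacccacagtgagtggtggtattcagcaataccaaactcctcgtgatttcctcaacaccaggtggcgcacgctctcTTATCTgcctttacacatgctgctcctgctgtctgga

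Dnmt3b downstream region in a Dnmt3c intron: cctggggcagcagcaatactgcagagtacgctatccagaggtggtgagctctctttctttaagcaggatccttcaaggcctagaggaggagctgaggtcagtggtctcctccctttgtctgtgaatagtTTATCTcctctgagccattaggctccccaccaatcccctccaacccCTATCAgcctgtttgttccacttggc

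The Tet3 region held 3 GATA matches, the Tdg region 1 and the Dnmt3b region 2. The composite of part of an E-box and a GATA pattern, bound by TAL1 with GATA1, was in 3 of the 25 distal regions (2 near Tet3, 1 of them the strong intron region, and 1 near Uhrf1), against 12.1% of all distal regions. The CTCF core was in 3 of 25 (1 near Dnmt3l and 2 near Uhrf1), against 13.5%, CCGGAA in 2 of 25 against 5.72%, and the AP-1 or NF-E2 letters TGACTCA or TGAGTCA in none, against 9.27%.

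Dnmt3b had 4 distal regions, and 2 of them lay in introns of Dnmt3c, a rodent copy of Dnmt3b known from the male germ line. The stronger of the 2 (chr2:153712600-153713212) had a signal of 10.86 and a −log10 p of 18.18 in replicate 1 and 19.64 in replicate 2, and the other (chr2:153724400-153724798) had a signal of 8.629 with 12.96 and 18.35. Both were in the thresholded list of replicate 1 alone, although the −log10 p was higher in replicate 2. Reads from near-identical stretches of Dnmt3b and Dnmt3c may be hard to place, and their treatment by the authors was not stated in the labels or file lists. The other 2 lay upstream between genes. The one at chr2:153610567-153611334 was called in both libraries with a signal of 8.46, and the one at chr2:153609588-153609908, with 6.518, in replicate 2 alone.

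The distal regions of the remaining genes were weaker or sat in other genes. Of the 6 near Uhrf1, 4 lay in introns of Kdm4b, a histone demethylase gene next to it, and 1 of these 4 was in the list of a library. The 2 upstream of Uhrf1 were called in both libraries, at chr17:56269168-56269660 with a signal of 14.85 and at chr17:56264076-56264347, which held a CTCF core, with 10.91. The third by signal, at chr17:56357576-56357873 in Kdm4b, had 9.068 and was in the replicate 1 list alone. Dnmt1 had a region in a coding exon of Angptl6 (chr9:20877864-20878660, signal 14.32) and one in an exon of Ppan (chr9:20889383-20890084, 7.49), both called in both libraries, and one in S1pr2 (chr9:20975377-20975844, 7.495) called in neither. The 2 regions near Dnmt3l had signals of 9.245 (chr10:78018803-78019175, called in neither library) and 5.248 (chr10:78008201-78008516, replicate 2 alone). Besides its intron region and the one at 1049 bp, Tet3 had regions in introns of Bola3 (chr6:83351570-83352206, 9.207, both libraries, and chr6:83356590-83357069, 6.684, replicate 2 alone) and 2 in Mthfd2 with 6.297 and 5.402, called in neither.

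Over all 25, distal regions called in both libraries numbered 10, against 42.7% of all distal regions. Another 3 were in the replicate 1 list and not the other, 3 in the replicate 2 list and not the other, and 9 in neither list. Among the 8 with a signal above 9.36, the median of all distal regions, 7 were called in both. The share over all distal regions above that median was not counted, so this describes these 8 regions only. Only 2 of the 25, both in Tet3, lay inside the gene they were counted for. At the edge of the 50 kb limit, the farthest region counted lay 49.45 kb from Tet3, and the nearest left out lay 53.26 kb from Dnmt3b with a signal of 16.08. Promoters of neighbouring genes made up the other 23 of the 56 regions. Of these 23, 17 were called in both libraries, against 80.7% of all promoter regions. The neighbour promoters nearest the 1 kb limit were at Hcfc2 (865 bp), Plin3 (776 bp) and Fem1a (771 bp). The S1pr2 region counted as distal was 1176 bp from a start.

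The wider pathway was described by 46 further genes in 5 lists, and 36 of them had a region at a start site of their own, against 41.9% of all protein-coding genes, with a median of 1 distal region per gene, which is also the median of all protein-coding genes. In the list of each library alone 32 of the 46 were open, against 38.5% (replicate 1) and 39.6% (replicate 2) of all protein-coding genes. The counts by list that follow are from the main list. All 9 genes of base excision repair, which acts after Tdg and Mbd4, were open, and 8 of the 9 in the replicate 1 list. The strongest were Xrcc1, a scaffold of single-strand break repair, with a signal of 22.71, and Apex1, the abasic site endonuclease, with 15.89. Methyl-CpG readers were open in 6 of 7, among them Mbd3 with a signal of 16.75, and Zbtb4 was without a region. Of the partners and guides of the methyltransferases, 8 of 12 were open, led by the replication clamp gene Pcna with 17.59 and the histone methyltransferase gene Setd2 with 12.44. Those without were Dppa3, Ehmt2, Nsd1 and Zfp57, of which Dppa3 and Zfp57 are known from germ cells and the early embryo.

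Of the genes that bind TET enzymes or supply their cofactors, 4 of 7 were open, with Idh3a, a subunit of mitochondrial isocitrate dehydrogenase, at a signal of 25.76 and Ogt, the O-GlcNAc transferase that binds TET proteins, at 14.71. Cxxc4, Cxxc5 and Slc23a2, a vitamin C transporter gene, were without a region. Of the genes that supply the methyl donor, 9 of 11 were open, with Shmt1 at 24.29 and the methionine synthase gene Mtr at 20.03, and Gnmt and Mat1a, both known from liver, were not. In the replicated list Zbtb4, Ehmt2, Nsd1 and Slc23a2 gained a region at the start, whereas Dppa3, Zfp57, Cxxc4, Cxxc5, Gnmt and Mat1a did not.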

How the data were processed

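ATAC-seq peak lists of 2 libraries of 1 group were read, 12 lists in all, on mm10 per the labels. No source used here names the software that aligned reads or called peaks, its version, its filters or a shift of read ends (not given in the sources used here). Per the file lists deposited with the samples, the authors made lists from each library, from pseudoreplicates and from both libraries, and used an exclusion list for those that were thresholded. The deposited signal is the authors' enrichment value per peak; its scale is unstated, and values were compared only within a list. The deposited −log10 p is the authors' value per peak. The deposited score used is the −log10 of the global IDR in the ranked list of true replicates.

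Overlapping peaks were merged, and each region took the summit of its peak of highest signal. A region was called in a library where it shared at least 50% of the shorter region with that library's IDR list. Start sites came from GENCODE M21 protein-coding transcripts, 54327 in all, and those within 500 bp of each other were joined. The main start of a gene is the one with most transcripts, and the most upstream one in a tie. The plan took the −log10 p per library from the ranked list of true replicates. Its 2 per-replicate columns carry no sample name, so each library's own ranked list was used in its place and those columns were left unused. The conservative list was the main one because it rests on true replicates.

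All 10 genes were named with their own promoter regions and, for distal regions, positions of the strongest 3. Of each pathway list the 2 genes with the strongest promoter region and those without one were named, and of each marker list up to 3 genes, except where a gene is not reported here. The members and lists were chosen with earlier results of these data known. Of 8 lymphoid markers 7 were measured, as Ighm has no protein-coding model in the annotation. All 10 genes matched the RefSeq promoter table, with 17 promoters. The annotation of regions was checked on simulated data. No test was made, since 1 group allows none. Alternatives were other peak lists, single libraries, other windows and distances, overlap in place of summits, and starts of every biotype. Python 3.11.15, pandas 2.3.3, numpy 2.4.6, pysam 0.24.0 and matplotlib 3.10.9 were used.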

Additional observations from a re-analysis of the deposited data

How the results depend on the processing

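The count of open genes stayed between 5 and 8 of 10 under all the lists and rules tried, and Dnmt3a and Tet1 were open in none of them. The share of all protein-coding genes moved with the count, from 32.08% at 5 of 10 to 54.09% at 8 of 10. The number of distal regions, 25 in the main list, depended most on the list: it was 56 in the replicated list, 146 in the archived one, 58 in the pooled pseudoreplicated one, 13 to 15 in single libraries, 8 above the median signal and 11 within 20000 bp of the gene bodies. Under each of these the mean per gene remained above that of all protein-coding genes, although gene length was not matched. It was 5.6 against 3.402 in the replicated list and 14.6 against 9.949 in the archived one. In the pooled pseudoreplicated list it was 5.8 against 3.406. Above the median signal it was 0.8 against 0.4028, and within 20000 bp 1.1 against 0.6754. Under the IDR lists of the libraries, 34 of the 56 regions were called in both. Of all promoter regions 80.7% were so called, and of all distal regions 42.7%. With the less strict pseudoreplicated list of each library the count rose to 54 of 56. The share over all regions under the pseudoreplicated lists was not counted. The median percentile of the strongest own promoter regions was 74.42, and 69.89 to 74.95 in single libraries, an alternative chosen after seeing the data. The number of reads is unknown, so regions that were not called cannot be taken as closed.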
